A study of Rattus norvegicus with 12 samples.

Results

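Müller glia are the radial glial cells of the retina, and 6 genes of their housekeeping functions were followed through 12 rat retinal RNA-seq libraries: Glul, Slc1a3, Aqp4, Kcnj10, Apoe and Clu. They were chosen by function (handling of glutamate, water, potassium and lipid) and by Ensembl identifier. Earlier results of these data were known at that choice. The numbers of the 6 called below are therefore no test of the set. All 6 of the 6 were found among the 32883 rows of the deposited table, and all 6 were among the 15916 genes that passed the filter on low values. The identifiers were ENSRNOG00000049560 for Glul, ENSRNOG00000016163 for Slc1a3, ENSRNOG00000016043 for Aqp4, ENSRNOG00000007705 for Kcnj10, ENSRNOG00000018454 for Apoe and ENSRNOG00000016460 for Clu. The symbols came with the choice of identifiers. All 6 symbols are in the RefSeq gene table used here, but that table holds 0 Ensembl identifiers, so the pairing of identifier and symbol was not checked. For the same reason markers of Müller glia and of other retinal cells, and further genes of these pathways, were not looked up by name.

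The retinal libraries came from Sprague Dawley rats (genotype: wild type), all taken at postnatal day 18, and fall into 4 groups of 3. The groups cross condition and injection: sham or oxygen-induced retinopathy (OIR), and scrambled RNA or a miR-143 mimic. OIR is a rodent model in which altered oxygen disturbs the growth of the retinal vessels, and the mimic is a synthetic RNA standing in for the mature microRNA. The sham scrambled, sham mimic, OIR scrambled and OIR mimic groups therefore all received a small RNA, and none was left without one. The sources used here do not give the oxygen schedule or the dose. They also leave unsaid whether replicates are separate animals, and p-values therefore measure only the spread between these libraries, which may be technical.

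As background, Müller glia span the retina and take up the glutamate that neurons release. They turn it into glutamine, carry potassium away from active synapses towards vessels and vitreous, and let water follow through a channel on their endfeet. They also make lipid-carrying apolipoproteins, and in many injuries they change their gene expression, a response called gliosis. In a bulk retina, fewer cells of a type and less RNA per cell cannot be told apart, and several of these genes are also expressed by astrocytes, pigment epithelium or immune cells.

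The microRNA that the mimic stands for has a pair of mature arms in RefSeq (build GRCr8), printed here because they define the treatment. The sources used here do not say which arm the mimic carries. Capitals mark the seed, bases 2 to 8 from the 5′ end, and the arms have different seeds. They lie on the minus strand at chr18:57371373-57371394 and chr18:57371408-57371428.
rno-miR-143-3p: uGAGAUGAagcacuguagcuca
rno-miR-143-5p: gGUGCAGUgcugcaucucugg

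Of the 6 genes, 3 were higher in OIR than in sham, and they were the same with either injection: Clu, Apoe and Slc1a3. Clu had the largest change, 2.44-fold with scrambled RNA and 2.54-fold with the mimic as a ratio of mean TPM (a library-scaled read density: reads per base of gene, brought to a common sum in each library). Kcnj10 was called lower only in the average of both injections, although its decrease in OIR was of similar size in each. Its log2 fold change was -0.22 for scrambled RNA and -0.26 for the mimic, beside -0.24 for the average. The average had the smaller SE, 0.078 against 0.11. No call was made for Glul or Aqp4 in any comparison. For the mimic against scrambled RNA no call was made for any of the 6, in OIR or in sham. For the test, log2(TPM + 1) was fitted with limma over all genes, and a gene was called at a Benjamini-Hochberg adjusted p under 0.05. With scrambled RNA 3 of 6 were called, against 10.7% of the 15916 genes tested. All 3 were called higher, against 6.79% of all genes called higher and 3.91% called lower. With the mimic 3 of 6 were called, against 19.5% (9.76% higher, 9.77% lower). Averaged over both injections 4 of 6 were called, against 30.2% (17.5% higher, 12.8% lower). The median log2 fold change of the 6 was 0.06 for OIR with scrambled RNA, 0.23 under the mimic and 0.14 as the average, beside 0.047, 0.041 and 0.045 over all genes tested.

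**Figure D1:**
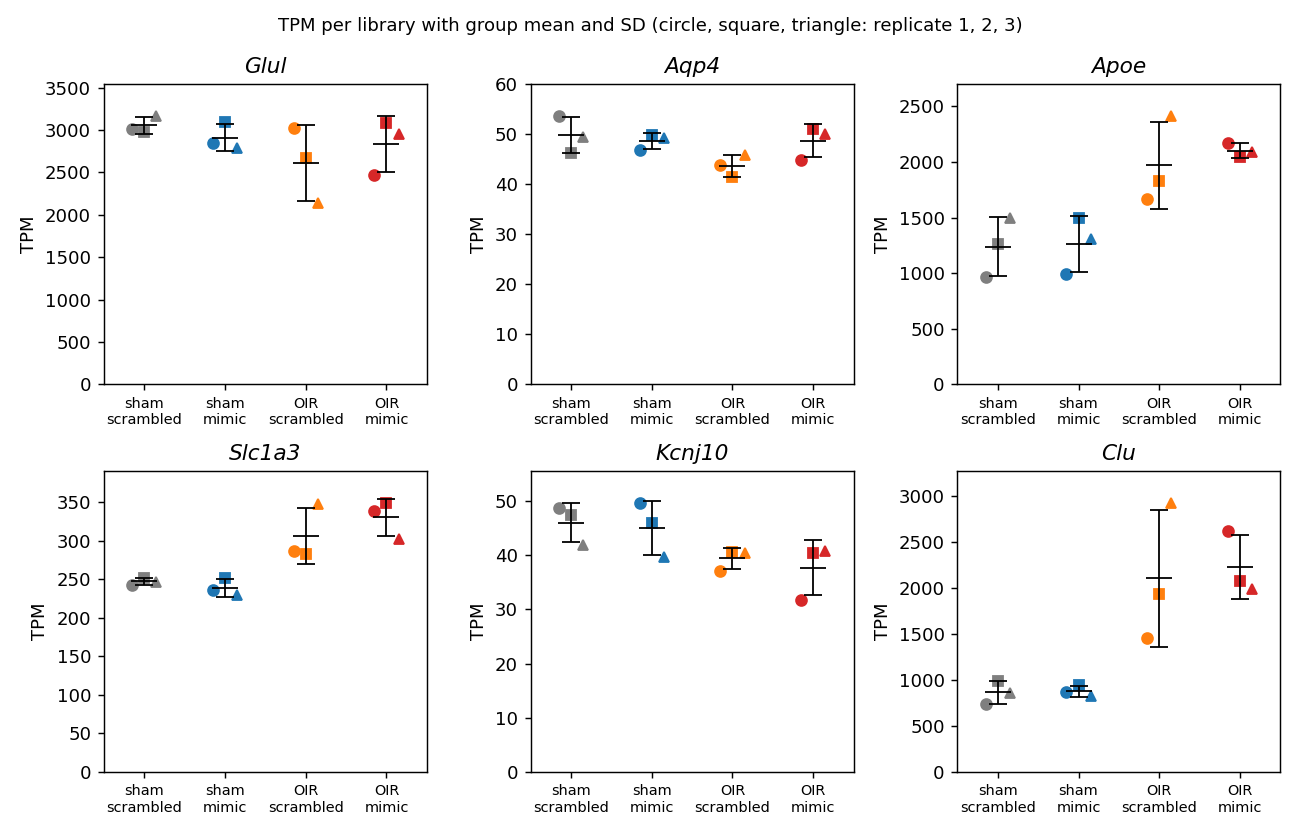
TPM of the 6 genes (vertical axes, each starting at 0) in every library of the 4 groups (horizontal axes), with the group mean and SD in black (n = 3). Clu, Apoe and Slc1a3 lie higher in all 6 OIR libraries than in all 6 sham libraries, while the ranges of Glul, Aqp4 and Kcnj10 overlap.

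Glul encodes glutamine synthetase, the enzyme that turns glutamate and ammonia into glutamine. It was the most abundant of the 6 in every sham library, where it ranked 12th to 15th of all genes by TPM. With scrambled RNA its sham libraries stood at 3016, 2982 and 3168 TPM, and its OIR libraries at 3026, 2669 and 2142 TPM. With the mimic they stood at 2847, 3092 and 2788 TPM in sham and at 2467, 3085 and 2959 TPM in OIR. The groups overlapped: 3 of the 6 OIR libraries lay below all sham libraries, and the other 3 lay within the sham range. The log2 fold change of OIR against sham was -0.24 (SE 0.12, limma adjusted p 0.227) with scrambled RNA and -0.04 (SE 0.12, limma adjusted p 0.852) with the mimic. The 95% intervals ran from -0.50 to 0.02 and from -0.30 to 0.22. The coefficient of variation was 4.83% over the 6 sham and 13.6% over the 6 OIR libraries, and this difference in spread was not tested.

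Slc1a3 encodes the glutamate transporter GLAST, which brings glutamate into Müller glia. Its sham libraries were close together, at 243, 251 and 247 TPM with scrambled RNA and at 236, 251 and 229 TPM with the mimic. Its OIR libraries stood at 287, 283 and 348 TPM with scrambled RNA and at 339, 348 and 302 TPM with the mimic. Every OIR library lay above every sham library, a pattern that 9.78% of all genes tested share. Within 1 injection, 19.7% of genes were higher without overlap with scrambled RNA and 20.1% with the mimic. The mean rose from 247 ± 4.22 to 306 ± 36.5 TPM with scrambled RNA (n = 3, ± SD), and the log2 fold change was 0.30 (SE 0.083, limma adjusted p 0.0413). With the mimic it rose from 239 ± 11.5 to 330 ± 24.3 TPM (n = 3, ± SD), and the log2 fold change was 0.46 (SE 0.083, limma adjusted p 0.00329). The call with scrambled RNA was close to the threshold and was lost in 14 of 25 other settings. Among them were leaving out any one of the 6 sham libraries or OIR scrambled replicate 3, which gave 0.20 to 0.31 (limma adjusted p 0.0517 to 0.127). The calls with the mimic and averaged over both injections (log2 fold change 0.38, SE 0.059, limma adjusted p 0.000668) were kept in every setting run.

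The levels of the uptake gene and the conversion gene were also compared within each library, on the TPM scale. The ratio of Slc1a3 to Glul TPM lay between 0.0779 and 0.0843 in the 6 sham libraries. In the 6 OIR libraries it lay between 0.0947 and 0.162. The ranges did not overlap, but those of Slc1a3 alone did not either, and no share over all genes was computed for such ratios. The ratio was highest in OIR scrambled replicate 3 (0.162) and next in OIR mimic replicate 1 (0.137). These are the OIR libraries with the lowest Glul.

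Aqp4 encodes the water channel aquaporin 4 of the Müller endfeet. Its sham libraries stood at 53.7, 46.3 and 49.5 TPM with scrambled RNA and at 46.9, 50.0 and 49.3 TPM with the mimic. Its OIR libraries stood at 43.8, 41.5 and 45.8 TPM with scrambled RNA and at 44.9, 51.1 and 50.1 TPM with the mimic. With scrambled RNA all 3 OIR libraries lay below all 3 sham libraries, as 12.9% of the genes tested did, and with the mimic the groups overlapped. The log2 fold change was -0.18 (SE 0.075, limma adjusted p 0.141) with scrambled RNA and -0.001 (SE 0.075, limma adjusted p 0.996) with the mimic. The difference between these effects was 0.18, with a 95% interval from -0.05 to 0.41 (interaction, limma adjusted p 1).

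Kcnj10 encodes Kir4.1, the potassium channel through which Müller glia shed potassium. Its sham libraries stood at 48.8, 47.4 and 41.9 TPM with scrambled RNA and at 49.6, 46.0 and 39.7 TPM with the mimic. Its OIR libraries stood at 37.2, 40.7 and 40.4 TPM with scrambled RNA and at 31.8, 40.5 and 40.8 TPM with the mimic. With scrambled RNA all 3 OIR libraries lay below all 3 sham libraries, again beside 12.9% of the genes tested, and with the mimic the groups overlapped. Sham mimic replicate 3 lay within the OIR range, and OIR mimic replicate 1 lay lowest of all 12. The log2 fold change was -0.22 (SE 0.11, limma adjusted p 0.242) with scrambled RNA and -0.26 (SE 0.11, limma adjusted p 0.133) with the mimic. Averaged over both injections Kcnj10 fell by 0.24 on the log2 scale (SE 0.078, limma adjusted p 0.0389). That call was lost in 12 of 24 other settings, with limma adjusted p up to 0.153. Leaving out any of sham scrambled replicates 1 and 2, sham mimic replicates 1 and 2, the 3 OIR scrambled libraries or OIR mimic replicate 1 was enough, with log2 fold changes of -0.25 to -0.18. Kcnj10 also rests on the fewest reads of the 6, 248 to 405 per library as recovered from the TPM values, against 29898 to 47629 for Glul.

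Aqp4 and Kcnj10, which work side by side at the endfeet, were the least abundant of the 6. In sham their ranges overlapped, with means of 49.3 ± 2.63 TPM for Aqp4 and 45.6 ± 3.94 TPM for Kcnj10 (n = 6, ± SD). In OIR their ranges did not overlap, at 41.52 to 51.09 TPM for Aqp4 and 31.82 to 40.85 TPM for Kcnj10. The ratio of Aqp4 to Kcnj10 was 1.09 ± 0.114 in sham and 1.21 ± 0.131 in OIR (n = 6, ± SD). The ranges of this ratio overlapped between sham and OIR.

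Apoe encodes apolipoprotein E, the main carrier of lipids between cells of the retina and brain. Its sham libraries stood at 961, 1258 and 1497 TPM with scrambled RNA and at 996, 1493 and 1308 TPM with the mimic. Its OIR libraries stood at 1666, 1826 and 2414 TPM with scrambled RNA and at 2173, 2042 and 2092 TPM with the mimic. No OIR library overlapped with sham. The lowest values of both sham groups belong to their replicates 1, whose column names carry the same number, with the letters R and L. What the number stands for is not stated. The mean rose from 1239 ± 269 to 1969 ± 394 TPM with scrambled RNA (n = 3, ± SD), and the log2 fold change was 0.67 (SE 0.19, limma adjusted p 0.0406). With the mimic it rose from 1266 ± 251 to 2102 ± 65.8 TPM (n = 3, ± SD), and the log2 fold change was 0.75 (SE 0.19, limma adjusted p 0.0156).

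The Apoe call with scrambled RNA was also close to the threshold and was lost in 13 of 25 other settings. Leaving out sham scrambled replicate 1 or 2, sham mimic replicate 3, OIR scrambled replicate 2 or 3, or OIR mimic replicate 1 or 3 ended it (log2 fold changes 0.50 to 0.72, limma adjusted p 0.0524 to 0.149). Without both libraries that share a number the log2 fold change was 0.50 (limma adjusted p 0.0833). With the mimic the call was lost in 1 of 25 settings, without sham mimic replicate 1 (log2 fold change 0.59, limma adjusted p 0.0572). Averaged over both injections, 0.71 (SE 0.13, limma adjusted p 0.00193), the call was kept in all 24 settings run.

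Clu encodes clusterin, also called apolipoprotein J, a secreted chaperone that binds lipids and misfolded proteins. Its sham libraries stood at 739, 991 and 858 TPM with scrambled RNA and at 868, 941 and 821 TPM with the mimic. Its OIR libraries stood at 1454, 1939 and 2921 TPM with scrambled RNA and at 2622, 2073 and 1989 TPM with the mimic. The lowest OIR library exceeded the highest sham library, and the OIR libraries also lay farther apart. The mean rose from 863 ± 126 to 2105 ± 747 TPM with scrambled RNA (n = 3, ± SD), and the log2 fold change was 1.24 (SE 0.21, limma adjusted p 0.00556). With the mimic it rose from 877 ± 60.4 to 2228 ± 344 TPM (n = 3, ± SD), and the log2 fold change was 1.34 (SE 0.21, limma adjusted p 0.0020). Averaged over both injections the log2 fold change was 1.29 (SE 0.15, limma adjusted p 0.000154), the 193rd highest of 15916 genes. The OIR calls of Clu were kept in every setting run, with log2 fold changes between 0.97 and 1.47.

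**Figure D2:**
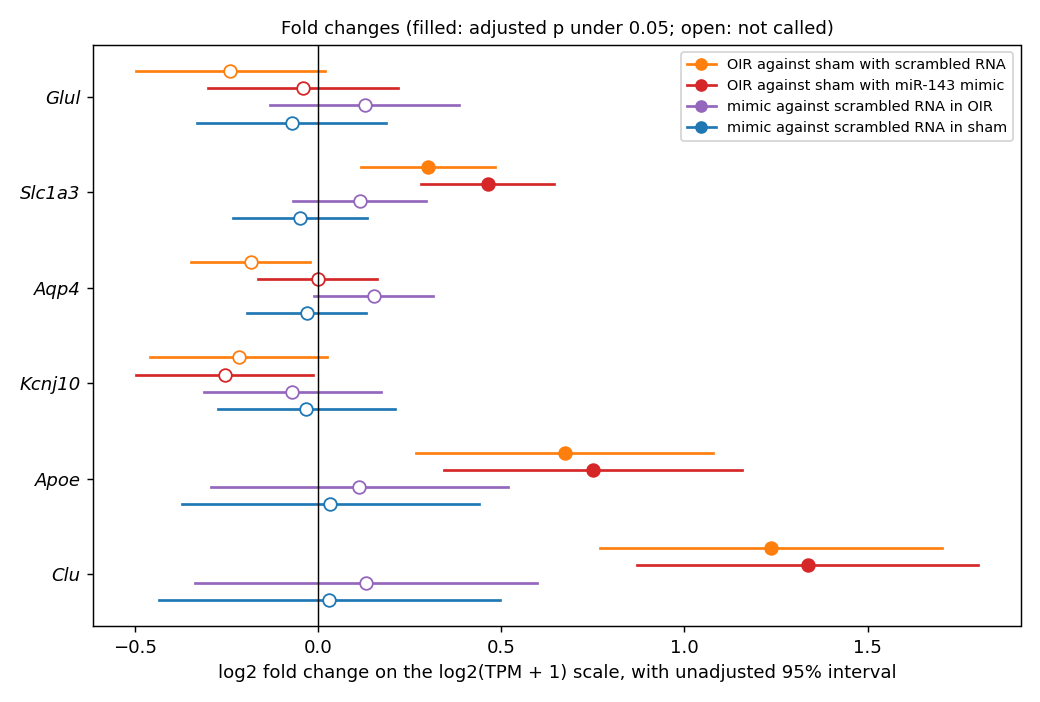
Log2 fold changes (horizontal axis, log2(TPM + 1) scale) of the 6 genes (vertical axis) in 4 comparisons, with unadjusted 95% intervals as lines and filled points for calls. Filled points are those of Clu, Apoe and Slc1a3 in OIR against sham with either injection, and all points of the mimic comparisons are open.

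The order of levels within the libraries differed between sham and OIR. In all 6 sham libraries Glul came first, Apoe next and Clu after it, then Slc1a3. In OIR the ranges of these 3 most abundant genes overlapped, at 2142 to 3085 TPM for Glul, 1666 to 2414 TPM for Apoe and 1454 to 2921 TPM for Clu. Clu exceeded Apoe in 4 of 6 OIR libraries and in 0 of 6 sham libraries. It exceeded Glul in 2 OIR libraries, OIR scrambled replicate 3 and OIR mimic replicate 1. The ratio of Clu to Glul was 0.292 ± 0.0304 in sham and 0.83 ± 0.323 in OIR (n = 6, ± SD). The 6 genes together took 0.544 ± 0.0381% of all TPM in sham and 0.733 ± 0.055% in OIR (n = 6, ± SD), with no overlap between 0.587%, the highest sham library, and 0.651%, the lowest OIR library. This was not a joint rise of the 6. Mean TPM was higher in OIR for Clu (870 to 2166), Apoe (1252 to 2035) and Slc1a3 (243 to 318). It was lower for Glul (2982 to 2725), Aqp4 (49.3 to 46.2) and Kcnj10 (45.6 to 38.6).

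**Figure D3:**
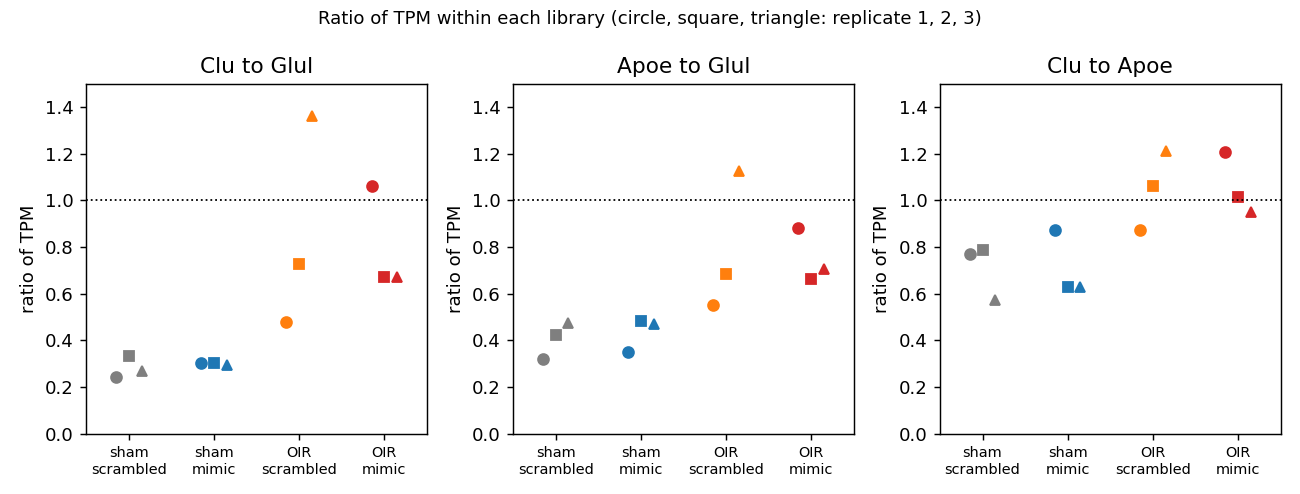
Ratio of TPM of Clu to Glul, Apoe to Glul and Clu to Apoe (vertical axes, starting at 0) in each library of the 4 groups (horizontal axes), with a dotted line at 1 where both levels are equal. Clu passes Apoe in 4 OIR libraries and Glul in 2, Apoe passes Glul in 1, and no sham library reaches the line in these 3 ratios.

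OIR scrambled replicate 3 and OIR mimic replicate 1 had the highest Clu and Apoe and the lowest Glul of the 6 OIR libraries. They are also the 2 libraries whose records lack the tags for disease and transfection, so their groups rest on the titles. Clu stood at 2921 and 2622 TPM in them and at 1454 to 2073 TPM in the other 4 OIR libraries. Glul stood at 2142 and 2467 TPM, against 2669 to 3085 TPM in the other 4. Without both of them, Clu was still called with scrambled RNA (log2 fold change 0.97, limma adjusted p 0.00577), while Apoe (0.52, limma adjusted p 0.174) and Slc1a3 (0.20, limma adjusted p 0.129) were not. With the mimic Clu (1.21, limma adjusted p 0.000733), Apoe (0.73, limma adjusted p 0.0332) and Slc1a3 (0.44, limma adjusted p 0.00267) all stayed called. Averaged over both injections these genes also stayed called, while Kcnj10 did not (-0.19, limma adjusted p 0.0956). Whether the way these libraries were made plays a part was not tested.

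Across the 6 OIR libraries the log2(TPM + 1) values of Apoe and Clu had a Pearson r of 0.942 (exact permutation test, two-sided, p = 0.0111) and a Spearman rho of 0.943 (p = 0.0167, exact). Over the 30 relations computed between the 6 genes within OIR and within sham, the adjusted p was 0.333 for r and 0.50 for rho, so the relation did not pass the correction. It was 0.704 without the 2 libraries farthest from the median of Apoe. In sham the r of this pair was 0.532 (exact permutation p = 0.285). Glul and Clu had an r of -0.824 in OIR (exact permutation p = 0.0542, adjusted 0.368) and a rho of -0.60 (p = 0.242, exact, adjusted 0.725). That relation rests on the 2 libraries named above, without which r was -0.177. The smallest adjusted p of the 30 was 0.333 for r, and within 1 group only 3 libraries are left, too few for such a value.

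**Figure D4:**
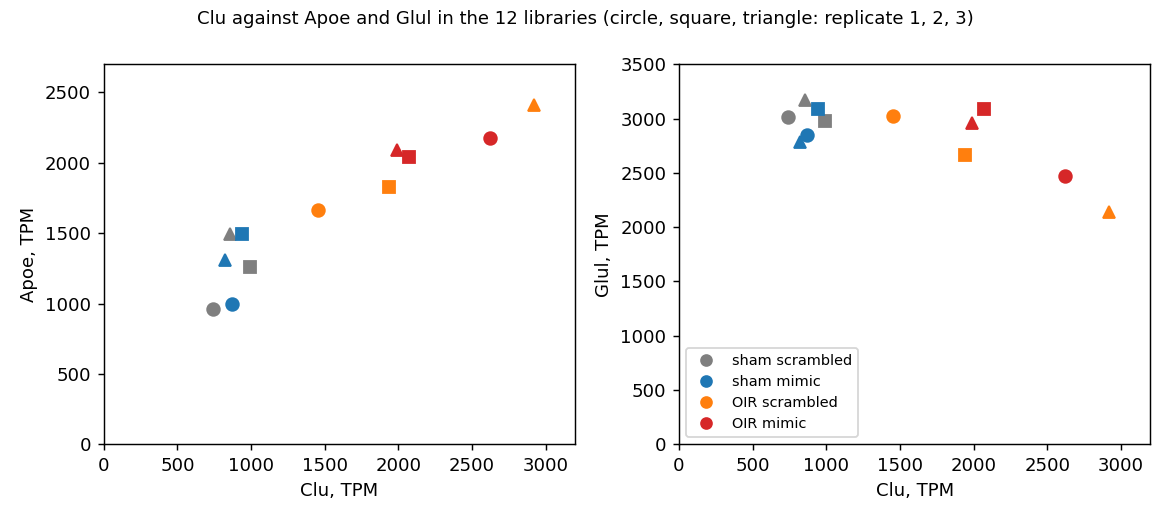
Clu (horizontal axes, TPM) against Apoe and Glul (vertical axes, TPM) in the 12 libraries, each point 1 library coloured by group. In OIR the libraries with more Clu mostly had more Apoe, though not OIR mimic replicate 2 against replicate 3. That relation did not pass the correction. The libraries with the lowest Glul, OIR scrambled replicate 3 and OIR mimic replicate 1, are those with the highest Clu.

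The mimic was compared with scrambled RNA within OIR and within sham, to see whether it moved these genes. In OIR 0 of 6 were called, as were 0% of the 15916 genes tested, and at an unadjusted p under 0.05 there were 0 of the 6 and 1491 of all genes. In sham 0 of 6 were called, again beside 0%, with 0 of the 6 and 333 of all genes at an unadjusted p under 0.05. On recovered reads, limma voom likewise called 0 of the 6 in both. In OIR the log2 fold change of the mimic was 0.13 for Glul (95% interval -0.13 to 0.39), 0.11 for Slc1a3 (-0.07 to 0.30) and 0.15 for Aqp4 (-0.01 to 0.32). It was -0.07 for Kcnj10 (-0.31 to 0.17), 0.11 for Apoe (-0.29 to 0.52) and 0.13 for Clu (-0.34 to 0.60). The limma adjusted p ran from 0.558 for Aqp4 to 0.871 for Apoe. In sham the 6 log2 fold changes lay between -0.07 and 0.03, with intervals no wider than -0.44 to 0.50, the interval of Clu. The intervals leave room for changes of that size in either direction. The columns of the mimic libraries carry the letter L and those of scrambled RNA the letter R, so letter and injection cannot be told apart. Likewise all numbers of the OIR columns are higher than those of the sham columns, so number and condition cannot be told apart.

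The interaction asked whether the OIR effect differed between the injections. It was 0.20 for Glul (95% interval -0.17 to 0.56), 0.16 for Slc1a3 (-0.10 to 0.42) and -0.04 for Kcnj10 (-0.38 to 0.30). For Apoe it was 0.08 (-0.50 to 0.65) and for Clu 0.10 (-0.56 to 0.76). With 0 of 6 called, beside 0% of all genes (limma; 0 of the 6 and 589 of all genes at an unadjusted p under 0.05, 0 of the 6 by limma voom), no difference between the injections was called, and one within these intervals could have been missed.

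Genes with a similar profile over the 12 libraries were looked for among 12048 other genes with a mean of at least 5 TPM. Closest to Glul was ENSRNOG00000019996, with a Pearson r of 0.947, at 226 ± 5.42 TPM in sham against 197 ± 33.5 TPM in OIR (n = 6, ± SD). Closest to the mean of the 6 standardised profiles was ENSRNOG00000032840, with an r of 0.916 and 47.4 ± 4.78 TPM in sham against 54.3 ± 6.29 TPM in OIR (n = 6, ± SD). The highest r was 0.997 for Clu, 0.983 for Slc1a3 and 0.974 for Apoe, and it was lower for Kcnj10 (0.863) and Aqp4 (0.862). These r are the highest of many, so they describe a likeness and are no test. The files do not pair those identifiers with names.

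Promoters are shown for genes that were called, as windows from 250 bases before to 50 after a RefSeq start site (build GRCr8). Of the 6 symbols, 5 had entries, with 11 windows in all, and Clu had none, so no count below covers it. Letters searched on both strands were ACGTG and GCGTG (cores of the hypoxia response element), TTCNNNGAA (STAT factors), TGANTCA (AP-1), GAANNTTC (heat shock factors) and GGGCGG (GC box). Within a window none of the matches overlapped one another, and capitals mark them in the printed sequences. The first window of Slc1a3 (chr2:59557759-59558058, minus strand) holds ACGTG at 137 and 131 bases before the start, where 19.3% of the 33469 windows of all genes hold that motif.
Slc1a3: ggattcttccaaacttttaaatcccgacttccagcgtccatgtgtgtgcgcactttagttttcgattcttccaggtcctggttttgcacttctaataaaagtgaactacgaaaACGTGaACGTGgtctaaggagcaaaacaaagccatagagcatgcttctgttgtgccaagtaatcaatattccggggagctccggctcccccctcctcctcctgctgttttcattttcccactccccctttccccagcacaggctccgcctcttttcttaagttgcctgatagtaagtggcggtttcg
The first Apoe window (chr1:88485767-88486066, minus strand) holds none of the motifs. The next (chr1:88484650-88484949, minus strand) holds GGGCGG or its reverse complement at 41 and 21 bases before the start, as 33.1% of all windows do at least once. The last (chr1:88484471-88484770, minus strand, not printed) holds ACGTG at 61 bases before the start. This window overlaps the one before it. Its GGGCGG and reverse complement, at 220 and 200 bases before its own start, are the same places already given at 41 and 21.
Apoe-1: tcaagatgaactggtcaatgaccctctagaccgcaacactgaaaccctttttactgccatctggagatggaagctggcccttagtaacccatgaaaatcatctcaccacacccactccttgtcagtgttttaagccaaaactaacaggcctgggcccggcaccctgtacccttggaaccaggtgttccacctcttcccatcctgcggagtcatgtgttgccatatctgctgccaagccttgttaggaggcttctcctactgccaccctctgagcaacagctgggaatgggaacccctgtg
Apoe-2: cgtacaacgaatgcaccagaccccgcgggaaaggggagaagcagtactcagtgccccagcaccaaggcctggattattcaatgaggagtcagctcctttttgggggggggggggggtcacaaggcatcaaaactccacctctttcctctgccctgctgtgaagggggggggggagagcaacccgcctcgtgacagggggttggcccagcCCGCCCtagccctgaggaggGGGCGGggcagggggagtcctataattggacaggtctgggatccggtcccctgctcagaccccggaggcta
The window of Kcnj10 (chr13:87334260-87334559, plus strand) has 70.3% G and C, against a median of 51.7%. It holds the reverse complement of GCGTG at its upstream end, a motif found in 29.7% of all windows, and the reverse complement of GGGCGG at 2 places.
Kcnj10: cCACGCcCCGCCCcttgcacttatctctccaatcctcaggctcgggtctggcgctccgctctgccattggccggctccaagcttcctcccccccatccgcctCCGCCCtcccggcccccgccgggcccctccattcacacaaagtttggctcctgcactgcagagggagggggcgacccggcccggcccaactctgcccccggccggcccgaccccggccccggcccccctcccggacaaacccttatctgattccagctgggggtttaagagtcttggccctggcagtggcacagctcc
TTCNNNGAA, TGANTCA and GAANNTTC were found in 0 of the 11 windows, beside 8.87%, 7.33% and 8.59% of all windows. The Slc1a3 windows overlap one another, as do the last Apoe windows, so the 11 are not separate stretches. With so few, a count of 0 does not show a lack of these motifs. These letters describe the sequence, and no binding was measured here.

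Over all genes, 10537600 to 13175005 reads per library could be recovered, 11061728 to 13175005 in sham and 10537600 to 11988672 in OIR. Counting error is therefore small for Glul, Apoe and Clu, which had at least 7048 reads in each library, and largest for Kcnj10.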

How the data were processed

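Retinal RNA was sequenced as single-end reads, per the labels' protocols, which speak of miRNA libraries although the table lists Ensembl genes. The authors deposited 1 table of TPM values. Build rn6 and the tools Cuffdiff, Cufflinks, TopHat and FastQC are named, with no role, per the submitters' processing notes. No source used here names the tool that counted reads or its annotation. Columns were assigned through the title lines above the table, and 0 were left over.

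Genes with at least 1 TPM in at least 3 of 12 libraries were kept. Log2(TPM + 1) was fitted with limma 3.58.1 (R 4.3.3), using a group-means design with 8 residual degrees of freedom, eBayes with trend and robust options and Benjamini-Hochberg adjustment over all genes, threshold 0.05. Fold changes on this scale understate those of low genes. TPM being scaled to one total, a rise of some genes lowers the others. Reads were recovered as the smallest whole numbers that fit the TPM values (tolerance 0.0001 at 1 read, at most 0.02), which gave counts for 22310 of 22310 rows above 0. Both steps were tested on simulated data.

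Genes, lists and motifs were chosen with earlier results of these data known. By the rule for names, all 6 genes are given, and of the most similar genes those of Glul and of the mean. Planned lists of related genes and cell type markers needed symbols and were not run. Other settings were pseudocounts of 0.1 and 0.5, no filter, 5 TPM, median-ratio and quantile scaling, voom, no trend and robust options, arrayWeights, only the 2 groups compared, a replicate block, and fits without single or untagged libraries. The fit without the 2 libraries of the same number was chosen after seeing the data.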

Additional observations from a re-analysis of the deposited data

How the results depend on the processing

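With scrambled RNA, 3 of the 6 genes were called in OIR against sham. That number was 1, Clu alone, with no filter on low values, median-ratio scaling, no trend and robust options, only the 2 groups compared, without the 2 untagged libraries, and without the 2 libraries of the same number (chosen after seeing the data). With single libraries left out it was 1 to 3. Some calls were lost without a library outside this comparison, where the log2 fold change cannot move. Slc1a3 stayed at 0.30 without any sham mimic library (limma adjusted p 0.0517 to 0.0579). Apoe stayed at 0.67 without sham mimic replicate 3 or OIR mimic replicate 1 or 3 (limma adjusted p 0.0524 to 0.0584). Without other libraries of the mimic groups these calls were kept. The cause of the losses was not tested. The counts of the other comparisons stayed within 1.5 times. Of 888 log2 fold changes under other settings, 848 kept their side of the threshold, 40 lost a call and 0 reversed. Libraries with the same replicate number had correlations of -0.048 to 0.258 in their deviations from the group means, over 0.1 in 5 of 18 pairs. In 8 of 18 the correlation was best with their own number. The highest, 0.258, was that of sham scrambled and sham mimic replicate 1, whose column names share a number. These correlations do not settle whether any libraries are paired, and the main fit treated all of them as separate. With the replicate block the numbers called were 2 with scrambled RNA, 3 with the mimic, 4 averaged and 0 for the mimic and the interaction. Median-ratio scaling moved the median log2 fold change of all genes from 0.047 to 0.006 with scrambled RNA. Kcnj10 had the fewest reads of the 6, and whether depth limited its call was not tested.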
